A study of Mus musculus with 44 samples.

Results

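The 8 livers of the KD group did not share a level of Krt19, and the data below describe the 3 that carried the most of it beside the other 5. All livers came from male C57BL/6 mice of 26 months. The KD mice had alternated each week between a ketogenic diet and the control diet (CD) since the age of 12 months, the CD mice had received CD throughout, and both groups were on CD in the week when tissue was taken, so that no liver was taken while ketogenic food was being eaten. Liver RNA was depleted of ribosomal RNA and sequenced in bulk. Which part of the liver was taken is not stated in the sources used here. There were 8 livers per diet among the 44 libraries of the series (the other 28 were brains and are not used here). The 3 livers were selected on their Krt19 level in CPM (the count of a gene scaled to a common library total), as the highest among the 8 KD livers. Livers are named by diet and replicate number. The labels number each liver as a separate sample and do not say more of the animals.

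Krt19, a type I keratin, is the usual marker of cholangiocytes, the epithelial cells that line the bile ducts. These cells share an embryonic precursor with hepatocytes, express the transcription factor Sox9, and secrete water and bicarbonate into bile. In an injured liver, ducts can multiply at the edge of the lobule, together with fibroblasts and matrix, which is known as a ductular reaction. The surface of the liver is covered by another keratin-bearing layer, the mesothelium, so that genes of both were read side by side.

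Krt19 (ENSMUSG00000020911; GRCm38 chromosome 11, 100140810 to 100148665, minus strand) was counted 143 times in KD 13, 86 times in KD 10 and 97 times in KD 9, or 13.5, 9.88 and 8.23 CPM. The other 5 held 10 counts in KD 14, 12 in KD 11, 9 in KD 16, 9 in KD 15 and 5 in KD 12, or 1.45, 1.30, 1.17, 1.02 and 0.490 CPM. The last liver inside the set of 3 thus had 8.23 CPM (95% exact Poisson interval 6.67 to 10, counting error only) and the first outside it 1.45 CPM (0.697 to 2.67). Means were 10.5 ± 2.68 CPM (SD, n = 3) and 1.09 ± 0.370 CPM (SD, n = 5), a log2 ratio of 3.28. The 8 CD livers spanned 0.320 to 1.72 CPM, with 4 to 19 counts each, so that the 5 lay among the CD livers and the 3 lay above every CD liver. Because these values chose the sets, every comparison of the 3 with the other 5 is a description without a test.

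The promoter of Muc1 is shown because this gene, described further on, followed Krt19 most closely. It runs 5′ to 3′ on the strand of the gene and ends at the base before the RefSeq start. Capitals mark CATTCC, the TEAD motif, read on the opposite strand as GGAATG, with its first base 132 before the start.
Muc1 promoter, GRCm38.p6 chr3:89228806-89229055, plus strand: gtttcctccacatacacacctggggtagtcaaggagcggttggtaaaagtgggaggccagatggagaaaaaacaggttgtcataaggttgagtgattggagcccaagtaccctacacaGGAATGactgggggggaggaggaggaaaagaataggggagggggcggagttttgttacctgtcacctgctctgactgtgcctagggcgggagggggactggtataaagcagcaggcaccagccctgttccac
The TEAD motif and the SOX motif ACAATG were sought on both strands. Among 32851 RefSeq windows of 250 bases, CATTCC was found in 12.6% and ACAATG in 10.7%. A match to so short a motif describes letters and not a bound site.

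Total counts were 6879726 to 11786410 in the KD livers and 8090281 to 12682087 in the CD livers, with Alb, the hepatocyte product albumin, between 9471 and 18620 CPM. Libraries differed in ways the diets do not name. Gm10800, a predicted gene, made up 1.23% to 2.39% of all counts of 5 KD libraries (KD 10, KD 11, KD 14, KD 15 and KD 16) and 1.61% of CD 1, against at most 0.0058% elsewhere. Those 5 KD libraries also listed 42868 to 47702 genes with a count, against 25604 to 27293 in KD 9, KD 12 and KD 13, so that many genes with little or no liver expression had a low count there. Each set is therefore also given within these strata, as KD 9 and KD 13 against KD 12 (Gm10800 low) and KD 10 against KD 11, KD 14, KD 15 and KD 16 (Gm10800 high), a split chosen after the data were seen. KD 12 stood apart from the 4 livers it is grouped with. It held 3595 summed CPM of 13 Kupffer cell genes, against 295 to 485 in the other 4 and 615 to 1519 in the 3, and it was the highest of all 8 for 12 of the 13, for 17 of 20 proliferation genes and for 10 of 14 T and NK cell genes (15.5% of all genes had their highest value there).

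Of 26568 genes with a mean of at least 0.5 CPM over the KD livers, 856 were higher in every liver of the 3 than in every liver of the 5 (3.22%) and 324 were lower (1.22%). Scaled by TMM factors, which moved the median log2 ratio of all genes from 0.02 to -0.12, the split was 544 higher and 371 lower. Single libraries weighed heavily on these numbers. KD 10 alone exceeded all 5 in 41.8% of genes, KD 9 in 19.1% and KD 13 in 8.82%. The counts became 3969 and 875 without KD 13, 2694 and 905 without KD 12, 1093 and 2375 without KD 10, and 1168 and 544 without KD 9. A gene with little signal in the 5 passes the level filter through the 3, so its place among the higher genes is partly set by the filter.

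Bile duct genes were higher with Krt19 as a group. Leaving out Krt19, 22 of 23 listed genes passed the level filter. Of these, 13 were higher in all 3 livers and none was lower (3.22% and 1.22% of all genes). The ratio was above 0 for 21 of the 22 (51.7% of all genes), and the median log2 ratio was 1.72, against 0.02 for all genes (1.58 and -0.12 with TMM). In each Gm10800 stratum 21 of the 22 were higher, against 23.6% of all genes in the low one and 54.2% in the high one. In both strata 20 were higher, against 12.2% of all genes. In bulk tissue more bile duct cells and more RNA per such cell cannot be told apart. Summed over the 22 genes, KD 10 and KD 9 held 1492 and 1461 CPM and KD 13 held 777 CPM, while the other 5 ranged from 374 to 604 CPM and the CD livers from 384 to 838 CPM. Only KD 10 and KD 9 thus lay above the CD range in this sum.

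Spp1, which encodes the secreted phosphoprotein osteopontin, separated the sets most widely among the bile duct genes. It stood at 147 CPM in KD 13, 232 in KD 10 and 231 in KD 9, and at 14.4 in KD 14, 12.0 in KD 16, 10.3 in KD 15 and 17.2 in KD 12, with KD 11 between the last and KD 14, a log2 ratio of 3.88. No value of one set came near the other. Osteopontin is also made by macrophages, and in the CD livers Spp1 ran from 12.73 to 218 CPM, which takes in KD 13 but not KD 10 and KD 9.

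Epcam, the epithelial adhesion molecule, stood at 4.90 CPM in KD 13, 26.1 in KD 10 and 19.4 in KD 9, and at 3.20, 2.17, 1.95, 1.70 and 0.882 CPM in KD 14, KD 11, KD 16, KD 15 and KD 12 (log2 ratio 3.08). All 3 were above the CD range of 0.394 to 3.21 CPM, although KD 13 only by a small step. Pkhd1, which encodes fibrocystin, a protein of the primary cilium of duct cells, was 40.1 CPM in KD 13, 260 in KD 10 and 251 in KD 9, and 23.9 to 38.5 CPM in the 5 (log2 ratio 2.53). Here the gap between KD 13 and the highest of the 5 was far smaller than that between KD 13 and its 2 companions. Sox9, the duct and progenitor transcription factor, was 47.0, 52.8 and 52.2 CPM in KD 13, KD 10 and KD 9 and 21.6 to 28.9 CPM in the 5 (log2 ratio 0.96), with the CD livers at 22.2 to 41.3 CPM. The 3 livers were nearly alike in Sox9, and all 3 were above every CD liver.

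**Figure D1:**
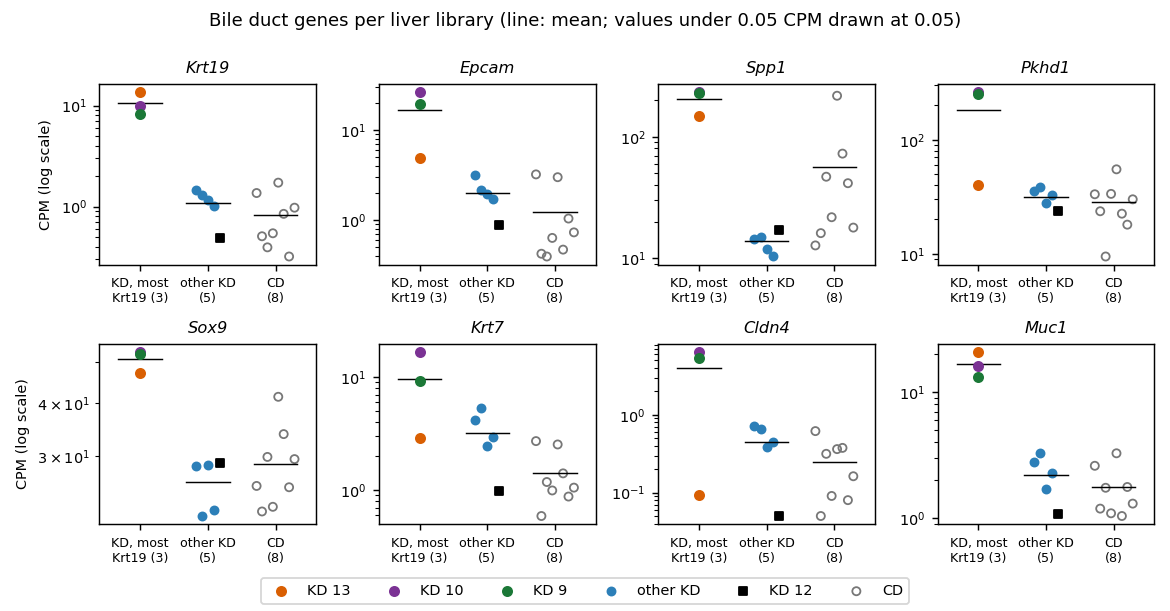
CPM on a log scale of Krt19, 6 bile duct genes and Muc1, with 1 point per library for the 3 KD livers with the most Krt19, the other 5 KD livers (KD 12 as a square) and the 8 CD livers, and the mean of each set as a line. KD 13 is highest for Krt19 and Muc1, is close to the 5 for Pkhd1 (40.1 CPM) and lies within or below them for Krt7 (2.92 CPM) and Cldn4 (0.0942 CPM).

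Krt7, the keratin that pairs with Krt19 as a duct marker, did not follow it in KD 13. Its CPM was 2.92 there, 16.7 in KD 10 and 9.25 in KD 9. The 5 had 4.22 in KD 14, 5.33 in KD 11, 2.47 in KD 16, 2.95 in KD 15 and 0.980 in KD 12, so the sets overlapped (log2 ratio 1.59). The livers of the 5 above KD 13 were KD 11, KD 14 and KD 15, all high in Gm10800. KD 12, the only liver of the 5 low in Gm10800, was below KD 13. Against KD 12, 21 of the 22 bile duct genes were higher in both KD 9 and KD 13 (23.6% of all genes). The tight junction gene Cldn4 was at 6.44 CPM in KD 10 and 5.43 in KD 9, at 0.0942 CPM in KD 13 and at no more than 0.727 CPM in the 5. KD 12 held no count of Cldn4, which allows up to 0.294 CPM. Cldn7 (1.23, 7.01 and 4.84 CPM in KD 13, KD 10 and KD 9) and the chloride channel gene Cftr (0.754, 13.5 and 8.57 CPM) had the same order. The highest values among the 5 were 2.50 and 7.17 CPM, both in KD 11, a library high in Gm10800.

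Other genes of the list had this order too. KD 13, first of all livers in Krt19, was below both KD 9 and KD 10 in 21 of the 22 bile duct genes (56% of all genes had this order) and the highest of the 8 in none (5.3% of all genes). It exceeded all 5 in 13 of the 22. Of the remaining 9, 7 (Krt7, Cldn4, Cldn7, Cftr, Cdh1, Ano1 and St14) exceeded all 5 in both KD 9 and KD 10. In all, 20 of the 22 were higher in KD 9 and KD 10 than in every one of the other 6, against 13.7% of all genes. The transcription factor Ehf (6.03, 38.3 and 25.7 CPM in KD 13, KD 10 and KD 9), Bicc1 (22.7, 125 and 105 CPM), an RNA-binding protein whose loss gives kidney cysts, and the membrane protein genes Prom1 (12.3, 46.1 and 49.97 CPM) and Tspan8 (3.86, 23.3 and 22.5 CPM) were higher in all 3 than in all 5, with KD 13 much nearer to the 5. Cd24a, a surface protein of progenitor and duct cells, was more even at 25.7, 44.3 and 37.3 CPM, against 2.83 to 13.6 CPM in the 5. Aqp1, the water channel of duct cells and also of vessels, differed little, at 96.8 to 102 CPM in the 3 and 81.8 to 91.0 CPM in the 5, and Slc4a2, the chloride and bicarbonate exchanger, was at 39.9 to 47.3 and 28.5 to 38.0 CPM. Onecut1, a transcription factor of hepatocytes and ducts, followed no set, at 17.2 CPM in KD 16 and 233 CPM in KD 14.

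**Figure D2:**
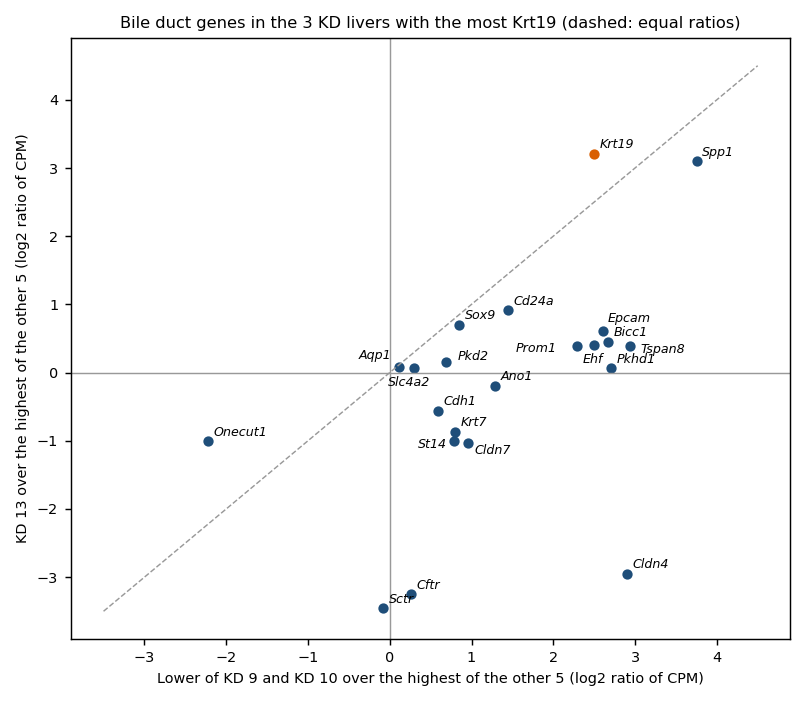
Each point is 1 of 22 bile duct genes, with Krt19 in orange, placed by the log2 ratio of KD 13 (vertical axis) and of the lower of KD 9 and KD 10 (horizontal axis) to the highest of the other 5 KD livers, in CPM. Krt19 is the only point above the dashed line of equal ratios apart from Onecut1, and 9 genes lie under 0 on the vertical axis, of which 7 are above 0 on the horizontal axis.

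The sets were also read against the CD livers. For 17 of the 22 bile duct genes none of the 5 exceeded all CD livers (57.8% of all genes), for none of the 22 did all 5 do so (0.0828% of all genes), and for 11 the 5 lay within the CD range (40.4% of all genes). For 5 genes (Krt7, Epcam, Sox9, Cldn7 and Tspan8) all 3 livers exceeded all CD livers (1.38% of all genes). In Krt7 3 of the 5 did so too, and in Cldn7 2 of the 5.

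The other simple keratins did not mark the split. Krt8 and Krt18, which hepatocytes also make, were highest in KD 13 at 176 and 178 CPM. Krt8 was 89.8 CPM in KD 10 and 93.4 in KD 9, and 46.1 in KD 14, 114 in KD 11, 56.9 in KD 16, 50.7 in KD 15 and 74.0 in KD 12 (log2 ratio 0.81). Krt18 overlapped in the same way, with KD 11 at 125 CPM above KD 9 and KD 10 (log2 ratio 0.61). Krt23 was 5.17 and 5.18 CPM in KD 10 and KD 9, 0.942 CPM in KD 13 and at most 1.59 CPM in the 5. None of these 4 keratins was higher in all 3 livers.

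Among 13 mucus and large duct genes with enough signal, 2 were higher in all 3 and none was lower (3.22% and 1.22% of all genes). Muc1, a membrane mucin of gland and duct surfaces, was 20.9 CPM in KD 13, 16.1 in KD 10 and 13.2 in KD 9, and 1.08 to 3.26 CPM in the 5 (log2 ratio 2.92). It had the same order as Krt19 among the 3 livers, and all 3 exceeded the CD range of 1.03 to 3.26 CPM. Cyp2s1, a cytochrome P450 of epithelia, was 8.48, 7.13 and 3.39 CPM in KD 13, KD 10 and KD 9 and 1.47 to 2.62 CPM in the 5. Dmbt1, a secreted scavenger receptor of mucosal surfaces, was confined to KD 13 at that scale, with 680 CPM against 8.16 CPM in KD 10 and 2.72 to 9.67 CPM in KD 11, KD 14, KD 15 and KD 16. It had no count in KD 9 and KD 12, which allows up to 0.255 and 0.294 CPM, so that its log2 ratio of 5.54 rests on 1 library and is -0.27 without it. Muc5b and Muc4 followed Gm10800 more than Krt19. Muc5b was 5.67 to 13.2 CPM in the 5 livers high in Gm10800 and 0.490 to 0.848 CPM in the other 3.

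Ranked by the Pearson correlation of log2(CPM + 0.1) with Krt19 over the 8 KD livers, which share their libraries and the split itself, Muc1 came first of 20425 genes (r = 0.991). The next were Gm11575 (0.973), the cadherin Fat1 (0.970), the receptor Fgfr1 (0.966), the RNA polymerase subunit Polr2e (0.965), Igfbp1 (0.958), Fyb2 (0.958), Ptprk (0.955), Gm12266 (0.954) and 1700030K09Rik (0.949). Of the 100 genes most alike, 2 were bile duct list members. Fat1 was 382, 305 and 363 CPM in KD 13, KD 10 and KD 9 and 184 to 230 CPM in the 5 (log2 ratio 0.74). Igfbp1, an insulin-like growth factor binding protein secreted by hepatocytes, was 256, 210 and 196 CPM and 22.4 to 84.7 CPM (log2 ratio 1.82). Its values lay inside the CD range of 5.07 to 422 CPM in every KD liver. Fgfr1 was even among the 3, at 29.2 to 30.3 CPM, and at 9.71 to 17.8 CPM in the 5.

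Mesothelial genes overlapped between the sets but were higher within the Gm10800 strata. Of 12 genes 1 was higher in all 3 livers (3.22% of all genes), and the median log2 ratio was 0.60. In the stratum low in Gm10800 all 12 were higher (23.6% of all genes), in the high one 11 (54.2%), and in both 11 (12.2%). The log2 ratios of the sums were 1.64 and 1.42. The first of these rests on KD 12 and the second on KD 10, each of them alone on its side of the comparison. Gpm6a, a membrane glycoprotein, was 5.84 CPM in KD 13, 21.2 in KD 10 and 13.1 in KD 9 and 3.53 to 5.22 CPM in the 5 (log2 ratio 1.63). Msln, which encodes mesothelin, was 2.83, 6.78 and 1.19 CPM in KD 13, KD 10 and KD 9 and 2.62, 2.83, 1.43, 1.59 and 0.294 CPM in KD 14, KD 11, KD 16, KD 15 and KD 12 (log2 ratio 1.04). KD 9, rich in duct transcripts, was thus below 4 of the 5 in Msln. Upk3b was 3.20, 7.93 and 2.04 CPM in the 3 and 0.980 to 4.94 CPM in the 5, and the transcription factor Wt1 was 4.90, 24.8 and 13.1 CPM and 2.16 to 9.45 CPM (log2 ratio 1.24). KD 10 was the highest of all 8 in 11 of the 12 genes, beside 36% of all genes. The summed CPM was 148 in KD 10, 53.5 in KD 9 and 38.5 in KD 13, and 49.7 to 60.8 in the 4 other livers high in Gm10800, but 14.7 in KD 12. Without KD 13, 4 of the 12 were higher in both remaining livers.

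Matrix genes were higher in KD 9 and KD 10 rather than with Krt19. Of 50 collagen and other matrix genes, 6 were higher in all 3 livers and none was lower (3.22% and 1.22% of all genes). Median log2 ratios were 1.23 for 17 collagens and 1.06 for 33 others. KD 9 and KD 10 exceeded the other 6 livers in 36 of the 50 (13.7% of all genes). KD 12 was the highest of the 5 in 34 of the 50 (28.9% of all genes). The number higher in all livers of the set was 36 without KD 13 and 31 without KD 12. Col1a1, the main fibrillar collagen chain, was 49.2 CPM in KD 13, 188 in KD 10 and 189 in KD 9, and 18.5, 18.3, 29.1, 23.2 and 137 CPM in KD 14, KD 11, KD 16, KD 15 and KD 12 (log2 ratio 1.65). With KD 12 above KD 13, the sets overlapped, and among the libraries low in Gm10800 the log2 ratio was -0.20. Col6a3 was 70.9, 277 and 234 CPM in the 3 and 33.8 to 73.2 CPM in the 5 (log2 ratio 2.09). Both KD 9 and KD 10 exceeded the CD range of 27.3 to 193 CPM in Col6a3, while their Col1a1 lay inside the CD range of 9.90 to 437 CPM.

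The 6 matrix genes above all 5 in each liver were Col8a1, Mfap4, Loxl1, Lama5, Lamb1 and Mmp14. Lama5, a laminin chain of epithelial basement membranes, was 25.9 CPM in KD 13, 73.1 in KD 10 and 58.1 in KD 9 and 9.36 to 19.99 CPM in the 5. The elastic fibre gene Mfap4 was 3.58, 17.5 and 9.33 CPM and 0.794 to 2.72 CPM, and the crosslinking enzyme Loxl1 was 5.37, 23.7 and 17.8 CPM and 2.15 to 5.00 CPM. Elastin itself, Eln, was 4.52, 34.3 and 17.5 CPM in the 3 and 2.65 to 13.7 CPM in the 5 (log2 ratio 1.36), so that KD 13 lay among the 5. Fn1, made largely by hepatocytes, had the opposite order, at 5198 CPM in KD 13, 2417 in KD 10 and 2868 in KD 9, with the 5 at 3093 to 3585 CPM.

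Portal fibroblast genes were highest in KD 9 and KD 10 as well, but unlike the matrix genes they were not high in KD 12, which had the lowest sum of the 5. Of 12 genes 3 were higher in all 3 livers (3.22% of all genes), Dpt, Cd34 and Entpd2. The log2 ratio of the sums was 1.01 in the stratum low in Gm10800 and 1.88 in the high one. Dpt, which encodes the matrix protein dermatopontin, was 11.3 CPM in KD 13, 54.0 in KD 10 and 32.1 in KD 9 and 3.29 to 6.24 CPM in the 5. Pdgfra, a receptor of fibroblasts, was 31.7, 137 and 105 CPM and 24.4 to 31.7 CPM, with KD 14 level with KD 13. The list summed to 315 CPM in KD 10 and 212 in KD 9, above the CD range of 57.6 to 142 CPM, and to 80.7 CPM in KD 13, inside the range of 72.9 to 88.6 CPM of the 5. Of 13 stellate cell genes 2 were higher in all 3 (Pdgfrb and Cygb) and 1 was lower (Ecm1), against 3.22% and 1.22% of all genes. Of 9 smooth muscle genes 1 was higher, and of 12 endothelial genes 2 (3.22% of all genes). In lists this short such counts say little. In the strata low and high in Gm10800 the log2 ratios of the sums were 0.15 and 0.72 for stellate genes. They were 0.58 and 0.55 for smooth muscle genes and -0.29 and 0.35 for endothelial genes.

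**Figure D3:**
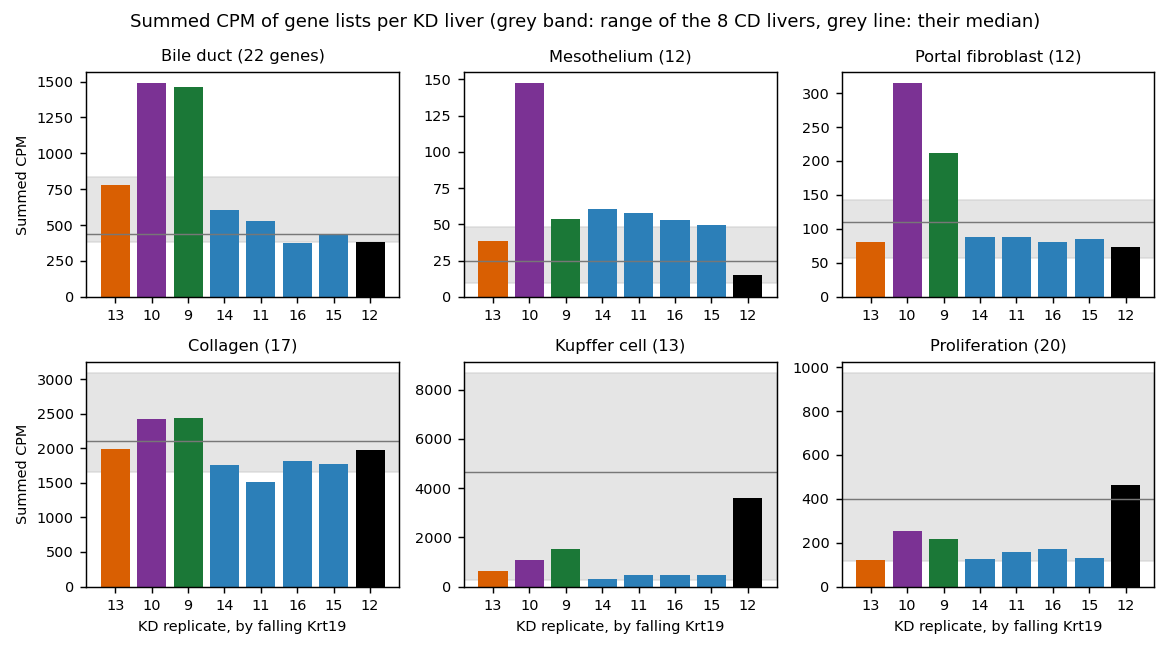
Summed CPM per KD liver of 6 gene lists (bile duct without Krt19), with the livers in order of falling Krt19 and the range and median of the 8 CD livers as a grey band and line. KD 10 and KD 9 are the highest for bile duct (1492 and 1461 CPM) and portal fibroblast genes (315 and 212 CPM), KD 10 alone stands out for mesothelium (148 CPM), and KD 12 stands out for Kupffer cell genes (3595 CPM).

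Among genes of the signals that shape ducts, all 14 Notch pathway genes had a ratio above 0 (51.7% of all genes), with a median log2 ratio of 0.36. Jag1 and Heyl, 2 of the 14, were higher in all 3 livers (3.22% of all genes). Among the libraries low in Gm10800 3 of the 14 were higher (23.6% of all genes), and among those high in it 12 (54.2%). The log2 ratio of their sums turned from -0.12 in the low stratum to 0.50 in the high one. Jag1, the ligand whose loss leaves too few ducts, was 19.9 CPM in KD 13, 58.0 in KD 10 and 50.5 in KD 9 and 15.3 to 18.6 CPM in the 5. The target Heyl was 8.57, 10.9 and 10.8 CPM and 5.59 to 7.61 CPM. Of 12 YAP and TEAD genes 3 were higher in all 3 (3.22% of all genes), among them Tead1 (66.7, 142 and 146 CPM against 54.2 to 64.3 CPM). Yap1 itself was 101 to 104 CPM in the 3 and 89.2 to 108 CPM in the 5. The log2 ratio of the YAP and TEAD sums was -0.23 in the stratum low in Gm10800 and 0.80 in the high one. Of 15 TGF beta genes none was higher in all 3, and the log2 ratio of their sums was -0.14 in the low stratum and 1.06 in the high one. The receptor Tgfbr1 was 85.9 CPM in KD 13, 165 in KD 10 and 162 in KD 9 and 62.8 to 94.1 CPM in the 5.

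Protein coding genes outside the lists were read if their mean was at least 1 CPM and they had no Gm or Rik name. Of these, 630 were higher in all 3 livers and 215 lower, beside 3.22% and 1.22% of all genes. The largest ratio was that of Mmp7, which encodes matrilysin, a protease of duct and gland epithelium. It was 2.17 CPM in KD 13, 23.6 in KD 10 and 19.1 in KD 9, and 0.227 to 1.30 CPM in the 5, a log2 ratio of 4.60. Next came Gsta1, Cldn8, Scara3, Cxcl14, Shc2, Slc39a4, Rad51b, Fermt1, Ccdc120, Glis3 and Ddr1. Means of Mmp7, Gsta1 and Cldn8 in the 5 were 0.614, 0.322 and 0.417 CPM. These genes passed the limit of 1 CPM only through the 3, so their place is partly set by the filter. In 11 of the 12 genes KD 13 was the lowest of the 3. Slc39a4, a zinc importer, was 21.3, 64.5 and 66.7 CPM and 5.67 to 16.6 CPM in the 5, and Glis3, a factor whose loss gives cystic kidneys, was 10.3, 52.2 and 42.6 CPM and 5.44 to 8.73 CPM. The exception was the chemokine Cxcl14, at 80.4 CPM in KD 13 and 7.93 and 7.21 CPM in KD 10 and KD 9, against 2.15 to 6.37 CPM.

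Genes that set KD 9 and KD 10 apart from the other KD livers were chosen after their values were seen. The 15197 protein coding genes compared had a mean of at least 1 CPM and no Gm or Rik name. Of these, 211 were more than 2-fold higher in both livers than in each of the other 6. Gpnmb, a glycoprotein of lipid-loaded macrophages, was 242 CPM in KD 10 and 160 in KD 9, and 2.06 to 15.1 CPM in the other 6. Cd207, which encodes langerin, was 58.3 and 87.4 CPM, against 1.82 to 9.12 CPM. The laminin chain Lamc3 was 60.0 and 57.1 CPM, against 3.86 to 8.14 CPM, and the integrin Itga8 was 167 and 141 CPM, against 12.6 to 22.8 CPM. In the CD livers Cd207 ran from 3.585 to 388.4 CPM, which takes in both livers. Gpnmb, Lamc3 and Itga8 reached at most 67.91, 9.61 and 57.3 CPM there. The Kupffer and monocyte lists as a whole were not highest in these 2 livers. Both summed highest in KD 12 (3595 and 967 CPM), with 1082 and 888 CPM in KD 10 and 1519 and 792 CPM in KD 9. The Kupffer sums in KD 11, KD 13, KD 14, KD 15 and KD 16 were lower, at 294.5 to 614.9 CPM. Their monocyte sums were lower too, at 98.7 to 195.6 CPM.

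Among the KD livers KD 13 had a set of its own, with 53 of the 15197 genes more than 2-fold higher than in each of the other 7. After Dmbt1 the largest steps were those of Saa2, Prtn3, Scara5, Cxcl14 and Orm2. Saa2 and Orm2 are acute phase genes, which hepatocytes express in inflammation. Saa2 was 785 CPM in KD 13, 60.5 in KD 12 and at most 14.1 CPM in the other 6. Orm2 was 812 CPM in KD 13, 95.1 in KD 12 and at most 33.2 CPM in the other KD livers. Lcn2, an antibacterial protein that binds iron carriers, was 684 CPM in KD 13 and 221 in KD 12. The rest of the KD livers held at most 45.2 CPM of it. The CD livers reached 226.8 CPM of Saa2 and 405.5 CPM of Orm2, both under KD 13. Their highest values of Lcn2 (1626 CPM) and Cxcl14 (228.5 CPM) were above KD 13. Over a list of 21 acute phase genes, chosen after values were seen, KD 13 was the highest of the 8 livers in 19, against 5.3% of all genes. The list's median log2 ratio of the sets was 0.66, but 1 gene (Cp) was higher in all 3 (3.22% of all genes). The neutrophil list summed to 18.8 CPM in KD 13, within the 18.2 to 84.1 CPM of the 5. Prtn3, a granule protease of neutrophils, was 58.4 CPM in KD 13 and at most 4.80 CPM in the other KD livers. The CD livers held 0.3246 to 45.89 CPM of Prtn3.

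Hepatocyte genes overlapped between the sets in 25 of 28 members. None was higher and 3 were lower in all 3 livers (3.22% and 1.22% of all genes), and the median log2 ratio was -0.12. The log2 ratio of their sums was 0.19 among the libraries low in Gm10800, where 13 of the 28 were higher (23.6% of all genes). Among those high in it the ratio was -0.35, where 1 was higher (54.2% of all genes) and 24 lower. The direction thus turned between the strata. The number of all genes lower in the high stratum is given in the last section. Alb was 14380, 15710 and 15540 CPM in KD 13, KD 10 and KD 9 and 15020 to 18620 CPM in the 5 (log2 ratio -0.13). Cps1, the first enzyme of the urea cycle, was 4917, 2440 and 4203 CPM, against 3227 to 5293 CPM, and the transcription factor Hnf4a was 980, 643 and 798 CPM, against 689 to 862 CPM. The 3 lower genes were Cyp8b1, Slc10a1 and Cyp2e1, and 2 of them serve bile acids. Cyp8b1, the sterol hydroxylase that sets the share of cholic acid, was 46.4 CPM in KD 13, 30.5 in KD 10 and 32.6 in KD 9, and 610, 169, 487, 398 and 233 CPM in KD 14, KD 11, KD 16, KD 15 and KD 12. Slc10a1, the transporter that takes bile acids up from blood, was 239, 217 and 242 CPM, against 372 to 632 CPM. In both, the CD livers covered a wide range (8.18 to 483 CPM for Cyp8b1 and 82.1 to 679 CPM for Slc10a1) that took in the 3 livers. Cyp7a1, the rate-limiting enzyme of bile acid synthesis, overlapped, at 63.8 to 117 CPM and 87.2 to 205 CPM. Without KD 13 or without KD 12 the number of lower hepatocyte genes was 7, and without KD 9 it was 5. The number of all lower genes, given above, also rose in each of these settings. Among the portal and central hepatocyte lists, Cyp2f2 was lower in all 3 (229 to 325 CPM, against 352 to 686 CPM) and Slc1a4 higher (26.6 to 31.2 CPM, against 5.98 to 20.3 CPM).

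Among protein coding genes outside the lists whose sets did not overlap, with a mean of at least 1 CPM, the lowest ratios were those of Cyp4a12a, Mup21, Slco1a1, Vmn1r90, Mup19, Mup2, Slc2a5 and Nup62cl. Several of these are known to be higher in male than in female mouse liver under pulsed growth hormone. Cyp4a12a, an arachidonic acid hydroxylase, was 20.8 CPM in KD 13, 20.1 in KD 10 and 14.7 in KD 9, and 92.7, 329, 389, 160 and 33.9 CPM in KD 14, KD 11, KD 16, KD 15 and KD 12 (log2 ratio -3.44). The organic anion transporter Slco1a1 was 63.0, 34.3 and 49.5 CPM, against 377, 541, 599, 489 and 117 CPM (log2 ratio -3.12). In both genes KD 12 was the liver of the 5 nearest to the 3. The Mup genes are near-identical copies between which reads can be split, so their single values are uncertain.

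A list of 15 male-biased genes, drawn up after these values were seen, gave a more mixed picture. All 15 had a ratio under 0 (51.7% of all genes were above 0), with a median log2 ratio of -1.95 (-2.02 with TMM). The 3 lower in all 3 livers (1.22% of all genes) were Cyp4a12a, Slco1a1 and Mup21. They had already been picked above for their low ratios, so their count adds nothing to that result. The sum over the list did not follow the split, at 5820 CPM in KD 13, 1970 in KD 10 and 2002 in KD 9, and 5016, 7838, 7898, 5016 and 2297 CPM in KD 14, KD 11, KD 16, KD 15 and KD 12. The log2 ratio of the sums was -1.71 among the libraries high in Gm10800 and turned to 0.77 among those low in it. KD 13 was below all 5 in 5 of the 15 genes and the highest of all 8 in 2, Serpina1e (2958 CPM) and C6 (472 CPM). KD 9 and KD 10 were below all 5 in 12 of the 15, against 3.29% of all genes, and KD 12 was the lowest of the 5 in all 15. Hsd3b5, a hydroxysteroid dehydrogenase, was 0.754, 1.03 and 0.594 CPM in the 3 and 0.882 CPM in KD 12, but 47.1 to 103 CPM in the other 4. The CD livers were divided too, and for Hsd3b5, Slco1a1 and Elovl3 4 of the 8 lay at or below the highest of the 3. Among female-biased genes (14 with enough signal, also listed afterwards), none was higher in all 3. Cyp2a4 was 219 CPM in KD 10 and 267 in KD 9, 22.8 in KD 12, 0.188 in KD 13 and 1.25 to 2.83 CPM in the other 4. KD 13, at 0.188 CPM, did not share the high Cyp2a4 of KD 9 and KD 10.

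**Figure D4:**
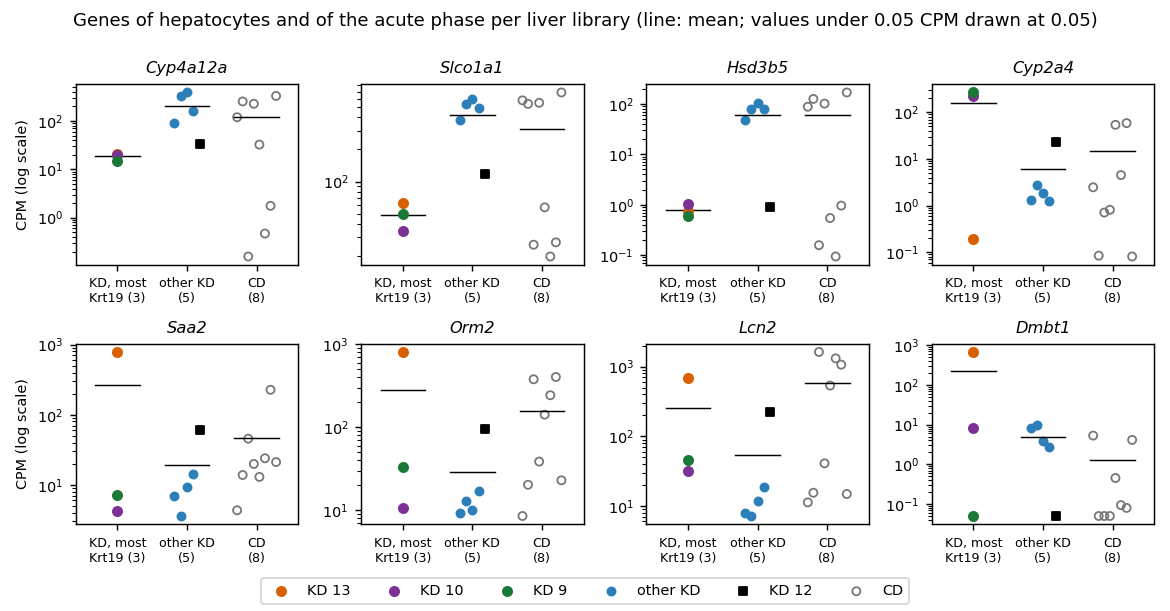
CPM on a log scale of 3 male-biased genes (Cyp4a12a, Slco1a1, Hsd3b5), the female-biased gene Cyp2a4, 3 acute phase genes (Saa2, Orm2, Lcn2) and Dmbt1, with 1 point per library and set means as lines. These 3 male-biased genes are low in all 3 KD livers with the most Krt19, in KD 12 and in part of the CD livers, Cyp2a4 is high in KD 9 and KD 10 (267 and 219 CPM), and the lower 4 panels are highest among KD livers in KD 13.

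Markers of other cells and tissues were read beside the duct genes. Kupffer cell genes had 1 lower and none higher of 13, with summed CPM of 615 to 1519 in the 3, inside the wide range of the 5 that KD 12 sets (log2 ratio of the sums 0.02, and 1.35 among the libraries high in Gm10800). Their part in the matrix result was not tested. Among monocyte genes 1 of 11 was higher in all 3, and of T and NK, B and plasma, proliferation and neutrophil genes none was. Proliferation genes summed to 123 to 252 CPM in the 3 and 125 to 169 CPM in the 5 without KD 12, which had 465 CPM. Of 10 fetal and tumour genes none was higher in all 3. Afp, the fetal counterpart of albumin, was 16.7, 11.5 and 7.64 CPM in KD 13, KD 10 and KD 9 and 8.14 to 18.1 CPM in the 5, and Sox4 was 3.01, 15.6 and 19.3 CPM against 1.36 to 3.63 CPM. Pancreas, where ducts also carry Krt19, had 7 of 14 listed genes over the level filter, and none of the 7 was higher in all 3. Within the libraries high in Gm10800, 6 of the 7 were higher in KD 10 than in every other (54.2% of all genes). Cela2a, Cpa1 and Ins2 were at most 0.377 CPM in KD 9, KD 12 and KD 13 and at most 1.95 CPM in KD 10. None of 5 intestinal and 8 adipocyte genes was higher in all 3 either. As 3.22% of all genes were higher in all 3, none or 1 in lists this short says little about these cells and tissues.

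The diets themselves were compared over all 16 livers. The ranking on Krt19 did not use the CD livers, but the 3 livers form part of the KD group. The Krt19 values that ranked the KD livers enter this fit, so it is no separate support for the split. Fitted with edgeR's quasi-likelihood test, 0 of 18002 genes were higher and 0 lower at an adjusted p under 0.05 (0.00% in each direction), while 1268 and 1524 had an unadjusted p under 0.05, and DESeq2 called 86 and 91. Without CD 1 edgeR called 100 and 17. Krt19 had a log2 fold change, KD over CD, of 2.53 (SE 0.67, edgeR adjusted p = 0.291), Epcam 2.59 (SE 0.73), Krt7 2.0 (SE 0.47), Pkhd1 1.60 (SE 0.54) and Muc1 2.19 (SE 0.58), each with the same adjusted p of 0.291. Spp1 had 0.71 (SE 0.77, edgeR adjusted p = 0.657). DESeq2 gave adjusted p of 0.0315 for Krt19, 0.0168 for Krt7, 0.0378 for Epcam and 0.0321 for Muc1. It did not call Pkhd1 or Spp1, nor the mesothelial genes Upk3b and Gpm6a, at an adjusted p under 0.05. Of the 18 bile duct genes tested beside Krt19, 17 had a value above 0 (median 0.89, with 55.8% of all genes above 0 and a median of 0.04). The mean difference of Krt19 between the diets rests on 3 of the 8 KD livers, since the other 5 lay at or under the highest CD liver. Mesothelial genes tested in this fit were all above 0 (9 of 9, median 1.21), with Upk3b at 1.41 (SE 0.43) and Gpm6a at 1.22 (SE 0.36), both at an edgeR adjusted p of 0.291, and Gm10800 was high in 5 of 8 KD and 1 of 8 CD livers.

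Whether duct genes move with Krt19 was tested in the 8 CD livers, which took no part in the ranking and in which Krt19 had only 4 to 19 counts. The slope on log2 CPM of Krt19 was called for 0 of 14357 genes in either direction by edgeR (0.00%), with 132 rising and 63 falling at an unadjusted p under 0.05, and DESeq2 called 1 and 2. Of 13 bile duct genes with enough counts 10 had a positive slope (51.7% of all genes), with a median of 0.29 log2 units per log2 unit of Krt19 and 0.01 over all genes. The largest of those with an unadjusted p under 0.05 was Pkhd1 at 0.84 (SE 0.30, edgeR adjusted p = 1), beside Cdh1 at 0.64 (SE 0.25), Ano1 at 0.60 (SE 0.16) and Sox9 at 0.29 (SE 0.10), all at an edgeR adjusted p of 1. Muc1 had 0.52 (SE 0.25) and Spp1 0.95 (SE 0.53), which turned to -0.51 without CD 5. Epcam and Krt7 were too low in these livers to be tested. Kupffer genes summed to 7985 to 8701 CPM in CD 3, CD 5, CD 6 and CD 7 and to 260 to 1345 CPM in the other 4. The liver richest in Krt19, CD 5, and the poorest, CD 7, were both in the first group. None of 12 Kupffer genes tested had a slope above 0 (median -0.29), nor had any of 12 proliferation and 6 T and NK cell genes, and no Kupffer, proliferation or T and NK gene was called. The part of these cells in the slopes of the duct genes was not tested.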

How the data were processed

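RNA-seq of 16 livers was used from a table of 44 libraries. The authors trimmed reads with Trimmomatic, mapped them with STAR to GRCm38 and made gene counts with RSEM (versions are not given in the sources used here), and the deposited table holds whole-number counts without normalization. Of 54446 identifiers 54409 were named from GENCODE vM21. CPM, sets, lists, ratios of mean CPM, motifs and the table of promoters (RefSeq, GRCm38.p6) were handled in Python 3.11.15 (pandas 2.3.3, numpy 2.4.6, figures with matplotlib 3.10.9). Sets were called apart when no value overlapped, among genes with a mean of at least 0.5 CPM over the KD livers. Tests used R 4.3.3 and edgeR 4.0.16 (filterByExpr, TMM, quasi-likelihood F test, Benjamini-Hochberg over all genes tested, threshold 0.05, prior count 2 for the Krt19 covariate), and DESeq2 1.42.0 as the alternative. On simulated counts the fit of the diets found 89 of 100 genes changed by a log2 of 2 among 18002, with 10 false calls. The slope fit found 71 of 100 among 14357, with 8. Changed genes were drawn only from those with higher mean counts. The Krt19 covariate was taken as free of counting error, and no split such as that in Gm10800 was built in. These rates therefore do not give the power for genes with few counts or for the real covariate.

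The members and gene lists were chosen with earlier results of these data known, and the sex-biased and acute phase lists after values had been seen. Genes were named by a rule: all bile duct, simple keratin and mesothelial members over the level filter, of other lists up to 4 by level and 2 by ratio, the 12 highest and 8 lowest ratios outside the lists with a mean of at least 1 CPM, and the 10 genes most like Krt19. Not every gene the rule allows is printed, and some items are not reported here, though counts over the lists include them. Those that set KD 13, or KD 9 and KD 10, apart were picked afterwards, as were Eln, Sox4, Jag1, Prtn3 and other single genes described by role. Intervals and limits of 3 counts cover counting error only. Where nothing states separate handling, p-values measure the spread between these samples. Alternatives were other scalings, filters, set sizes, tools, covariates and each library left out.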

Additional observations from a re-analysis of the deposited data

Results flagged for a closer look

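Of 46 groups of 8 livers (23 genes in each diet) 1 held a liver far from the rest. Fat1 in CD 5 was 628 CPM, and the other 7 CD livers were between 199.7 and 318 CPM. On the log2(CPM + 0.1) scale the gap to the next liver was 0.594 of the whole range, above Dixon's 95% limit for 8 samples. CD 5 was also the CD liver with the most Krt19, at 1.72 CPM. Chance alone flags about 1 group in 20.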

How the results depend on the processing

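No paired analysis was possible because the CD livers are numbered 1 to 8 and the KD livers 9 to 16. Counts of genes whose 3 livers lay apart from the other 5 (all genes 856 higher and 324 lower, bile duct 13, mesothelium 1, matrix 6, hepatocyte 3 lower) moved with the sets and libraries. With TMM scaling 544 genes were higher. With 2 livers against 6, 495 genes were higher, and 0 bile duct and 0 matrix genes. With 4 against 4 they were 281 higher and 150 lower, 3 bile duct, 0 mesothelial, 1 matrix and 0 hepatocyte genes. Among libraries low in Gm10800 they were 6283 and 8998, 21, 12 and 14 (KD 9 and KD 13 against KD 12), and among those high in it 14398 and 2523, 21, 11, 46 and 24 (KD 10 against 4), where fewer libraries by construction leave fewer chances to overlap. Leaving out 1 liver gave 964 to 3969 higher and 372 to 2375 lower genes, 13 to 20 bile duct, 1 to 4 mesothelial, 6 to 36 matrix and 3 to 7 hepatocyte genes. The log2 ratio of Dmbt1 was -0.27 without KD 13 and at most 6.13 without another liver, that of Col1a1 -0.20 in libraries low in Gm10800, and the CD slope of Spp1 -0.51 without CD 5 and at most 1.19 without another; the cause was not tested. For the diets DESeq2 called 86 higher and 91 lower, and leaving out 1 liver gave 0 to 100 and 0 to 17 with edgeR. For the CD slope DESeq2 called 1 and 2, and leaving out 1 liver gave 0 to 0 in each direction. Krt19 in the KD livers outside the set had 5 to 12 counts, so that its order among them is within counting error.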
